A study of Mus musculus with 8 samples.

Results

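The genes described here are 58 genes of the cell division cycle and of DNA replication, chosen by name: each is a row of the deposited expression table whose symbol is on a list of cyclins, cyclin-dependent kinases, replication factors and mitotic regulators. All 58 were among the 22829 genes of the table, and all 58 averaged 10 or more normalized counts over the 8 samples, a minimum that 16982 genes met. A normalized count is a gene's reads divided by the size factor of its sample. Fold changes are K187R relative to WT on the scale of log2(normalized count + 1), adjusted p-values are over all 16982 genes, and permutation tests were exact and two-sided. Gene positions are those of GENCODE M21 on mouse build GRCm38. By role they were 6 G1 cyclins and kinases, 22 genes of S phase, 27 genes of mitosis and 3 inhibitors of cyclin-dependent kinases.

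RNA seq was performed on ROR-γt-/- mouse-derived Th17 cells, a T helper cell type that secretes IL-17. CD4+ T cells came from spleens of mice that lack ROR-γt, the transcription factor that directs this cell type. The cells were transduced with lentivirus for WT-ROR-γt (4 samples) or for K187R-ROR-γt (4 samples), a form in which the lysine that receives the SUMO modifier is replaced by arginine, and were differentiated under Th17-polarizing conditions. The comparison asks whether cell cycle transcripts differed between cells with SUMOylation-competent and SUMOylation-defective ROR-γt. Every sample thus shares the deletion and the viral transduction, and the age and sex of the animals and the share of cells transduced are not given in the sources used here. The deposited description speaks of WT and mutant mice, while the paper's text describes transduced cells of ROR-γt-/- mice. Nothing states whether the samples of a group came from separate animals or cultures. Xist, given below, differed widely within each group, so the samples of a group did not all come from the same animals. The p-values below measure only the spread between these samples, which may be technical in part. Samples are called WT 1 to WT 4 and K187R 1 to K187R 4 after their labels.

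A dividing cell passes from G1 into S phase when D-type and E-type cyclins, with their kinases, inactivate the retinoblastoma protein and release E2F factors, which switch on genes for replication. Replication origins are licensed by loading the MCM helicase, and DNA is then copied by polymerases held on the template by the PCNA clamp. Cyclin A and cyclin B with Cdk1 drive the cell into mitosis, and the anaphase-promoting complex ends it. T cells divide rapidly after activation, so these genes are strongly transcribed in cultures that cycle and weakly in cultures that rest.

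The 8 samples held between 52456804 and 74676721 reads on genes, and the 58 genes together took between 0.447% and 0.703% of them. The member with the fewest reads in any sample had 116, against a floor of 3 reads. Clustering over 16753 genes, with the cell cycle genes left out, was cut into 3 sets, a number that was chosen and not found by the clustering. The sets cut across the groups. The first held WT 1, WT 3 and K187R 1, the second WT 2, K187R 2 and K187R 3, and the third WT 4 with K187R 4. Xist, the RNA of the inactive X chromosome, stood between 13564 and 17373 normalized counts in the 3 samples of the second set and between 3.56 and 23.7 in the other 5. Cd4, the defining marker of the purified cells, was between 15147 and 20882 normalized counts in all samples. The 12 listed markers of CD4+ T cells, Cd4 among them, summed to between 193321 and 220732 in WT and between 214738 and 241638 in K187R. Single markers differed from Cd4: Lck was highest in K187R 4, at 44266, where Cd4 was at 15335, and Ccr6 ran from 776 to 3038.

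The cell cycle genes differed more among samples of one group than between the groups. S phase and mitotic genes were highest in WT 1 and WT 3, intermediate in WT 2, K187R 1, K187R 2 and K187R 3, and lowest in WT 4 and K187R 4. Relative to each gene's mean over the 8 samples, the median of the 27 mitotic genes was 0.50, 0.02, 0.54 and -0.59 on the log2 scale in WT 1 to 4 and -0.03, 0.02, 0.00 and -0.48 in K187R 1 to 4. The 22 S phase genes followed the same course with a smaller amplitude, at 0.35, -0.08, 0.41 and -0.40 in WT 1 to 4 and 0.00, -0.01, 0.08 and -0.29 in K187R 1 to 4. The median of the 6 G1 genes lay between -0.15 and 0.15 in all 8 samples. In bulk RNA, fewer dividing cells and less of these transcripts per cell cannot be told apart.

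**Figure D1:**
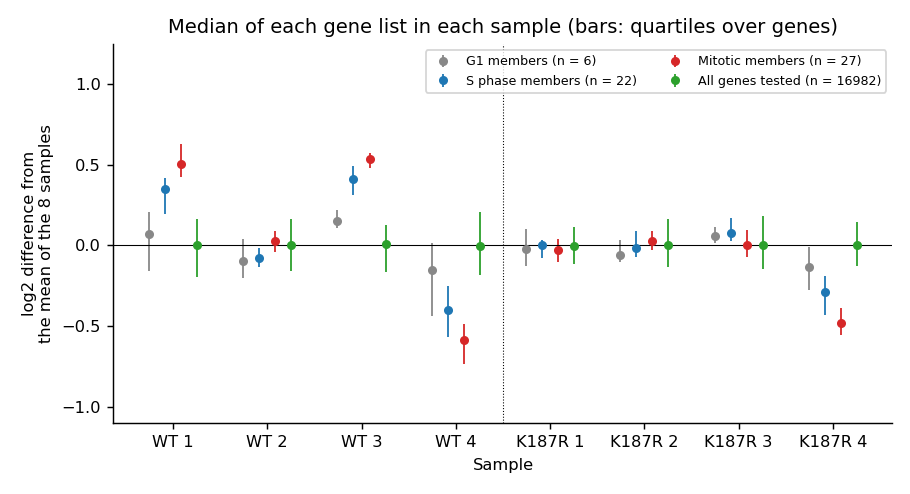
Median difference of G1, S phase and mitotic genes and of all genes tested from each gene's own mean over the 8 samples (y axis, log2 of the normalized count plus 1), by sample (x axis); bars span the quartiles over genes. The mitotic median is near 0.5 in WT 1 and WT 3, near 0 in 4 samples, and at -0.59 and -0.48 in WT 4 and K187R 4, while the median of all genes stays near 0.

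The ratio of the highest to the lowest sample had a median of 2.19 over the mitotic genes, 1.71 over the S phase genes and 1.47 over the G1 genes, against 1.55 over all genes tested. This ratio was at least 2 for 23 of 27 mitotic genes and 7 of 22 S phase genes, and for 30.3% of all genes tested. The highest sample was WT 1 or WT 3 for 53 of the 58 genes (28.9% of all genes tested). The lowest was WT 4 for 44 of the 58 and K187R 4 for another 8, and for 26.5% of all genes tested the lowest was a sample numbered 4.

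**Figure D2:**
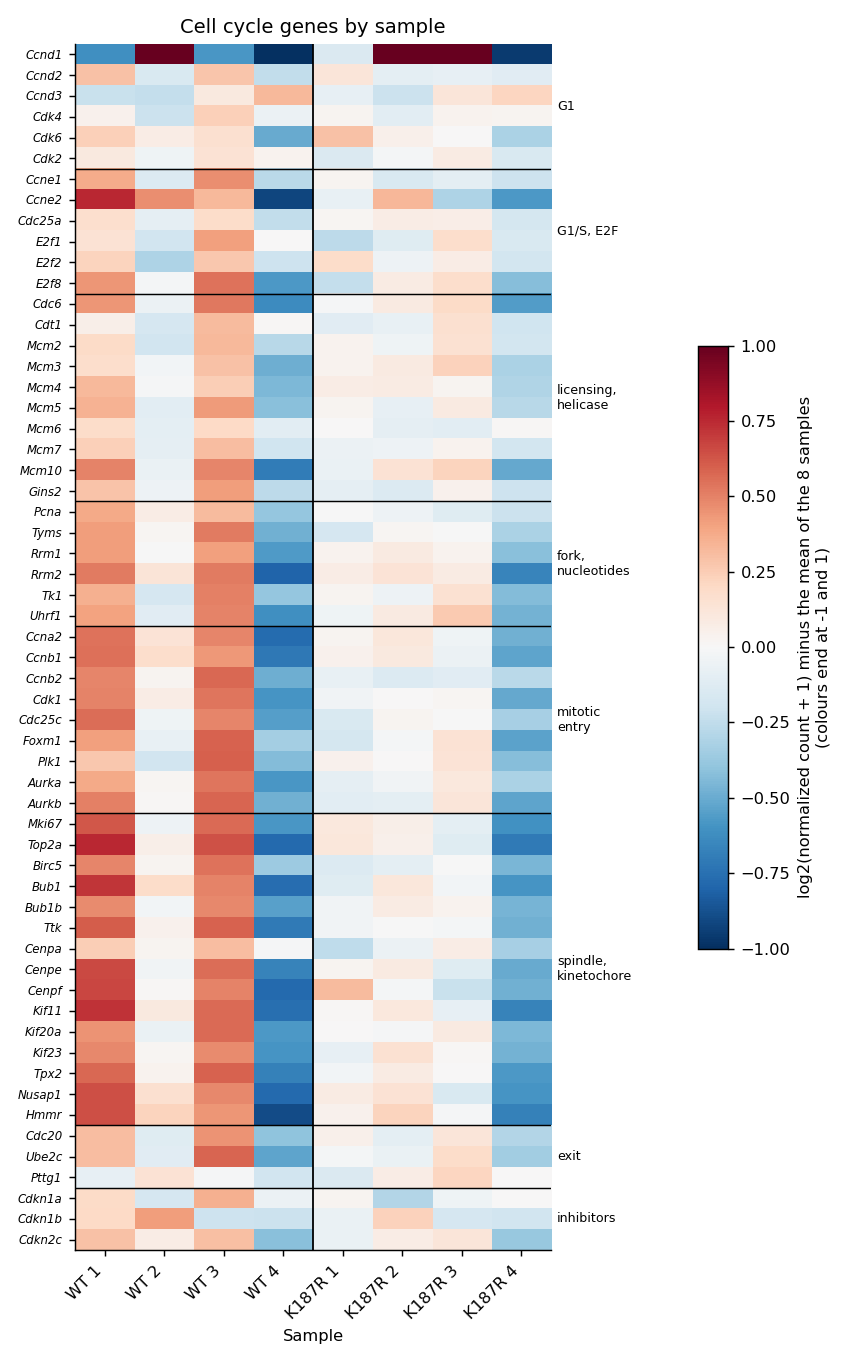
The 58 genes (rows, by role) in the 8 samples (columns), coloured by the difference of log2(normalized count + 1) from the gene's mean over the 8 samples. Rows of S phase and mitotic genes share dark columns for WT 1 and WT 3 (higher) and for WT 4 and K187R 4 (lower), while Ccnd1, the top row, is high in WT 2, K187R 2 and K187R 3.

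The G1 genes encode the D-type cyclins and the kinases that they and cyclin E activate. They did not move as one list across the samples. Ccnd2 was the D-type cyclin with the most transcript, at 5158 normalized counts per kilobase of exon, against 1003 for Ccnd3 and 102 for Ccnd1, each a mean over the 8 samples divided by the length of all annotated exons of the gene.

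Ccnd1 (ENSMUSG00000070348, chr7:144929931-144939925, minus strand), which encodes cyclin D1, was at 232, 781, 238 and 101 normalized counts in WT 1 to 4 and 321, 1019.5, 973 and 182 in K187R 1 to 4. It was high in WT 2, K187R 2 and K187R 3, the second set of samples, in which Xist was also high. That set held 1 WT and 2 K187R samples. Ccnd1 was lowest in WT 4 and K187R 4, a 10.1-fold range that was the widest of the 58 genes and that the groups shared. The K187R samples were higher on average, with a log2 fold change of 0.93 with a standard error of 0.693 (limma adjusted p = 0.921, exact permutation p = 0.286), and K187R exceeded WT in all 3 sets of samples, by 0.45, 0.35 and 0.84 on the log2 scale. Its log2 fold change was 0.49 without WT 4, 0.58 without K187R 2, 0.60 without K187R 3, 1.41 without K187R 4 and 1.46 without WT 2. Ccnd2 (ENSMUSG00000000184, chr6:127125162-127152193, minus strand), for cyclin D2, was at 58866, 43354, 58413 and 40562 normalized counts in WT 1 to 4 and 52344, 44874, 45415 and 44397 in K187R 1 to 4. Its highest samples were WT 1 and WT 3, and the K187R range lay inside the WT range (log2 fold change of -0.09 with a standard error of 0.134, limma adjusted p = 0.937, exact permutation p = 0.629). Ccnd3 (ENSMUSG00000034165, chr17:47505051-47599691, plus strand), for cyclin D3, ran the other way among the samples, at 7473, 7375, 9325 and 10923 normalized counts in WT 1 to 4 and 8249, 7495, 9495 and 10088 in K187R 1 to 4. WT 4 was its highest and K187R 4 its second highest sample, and the groups overlapped throughout (log2 fold change of 0.02 with a standard error of 0.144, limma adjusted p = 0.991, exact permutation p = 0.857).

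**Figure D3:**
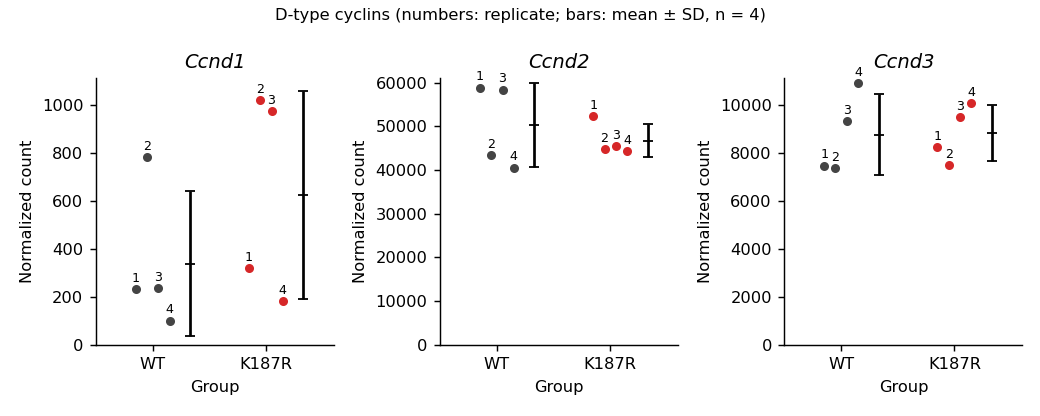
Normalized counts (y axis, linear, one scale per gene) of Ccnd1, Ccnd2 and Ccnd3 in WT and K187R samples; points carry the replicate number and bars show the mean ± SD of 4 samples. Samples 2 and, in K187R, 3 are high for Ccnd1, WT 1 and WT 3 are high for Ccnd2, and the samples numbered 4 are high for Ccnd3.

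Of the kinases, Cdk6, a partner of the D-type cyclins, was at 13628, 12125, 12861 and 8139 normalized counts in WT 1 to 4 and 14125, 11964, 11572 and 9269.5 in K187R 1 to 4. Both samples numbered 4 were below the other 6, and K187R 1 was the highest (log2 fold change of 0.02 with a standard error of 0.176, limma adjusted p = 0.993, exact permutation p = 0.943). Cdk2, the partner of cyclin E and cyclin A, had the narrowest range of the G1 list, 1.23-fold, at 4602, 4167, 4742 and 4413 normalized counts in WT 1 to 4 and 3894, 4252, 4557 and 3867 in K187R 1 to 4. WT 3 was the highest and K187R 4 the lowest, with overlapping groups (log2 fold change of -0.11 with a standard error of 0.0783, limma adjusted p = 0.921, exact permutation p = 0.171). Cdk4, the other partner of the D-type cyclins, ranged 1.37-fold, between 7583 and 10414 normalized counts, with a log2 fold change of -0.00 and a standard error of 0.0971.

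Promoters were read from RefSeq windows of mouse build GRCm38.p6, the 250 bases before the annotated start, of which 47 of the 58 genes had one or more. Motifs of 3 kinds were sought on both strands: the E2F motifs TTTGGCGC, TTTCCCGC, TTTCGCGC and TTTGGCGG, the CHR (cell cycle genes homology region) motifs TTTGAA and TTCGAA, and the CCAAT box. Motifs may share bases, and an E2F motif can overlap another one on the opposite strand; TTCGAA reads the same on both strands and was counted once. An E2F motif was in 1.957% of all 32851 windows, a CHR motif in 17.15% and a CCAAT box in 33.85%. A match is a description of the sequence and not evidence of binding. The window of Cdk4, a G1 gene, is shown because it held none of these motifs (chr10:127063285-127063534 of GRCm38.p6, plus strand).
Cdk4: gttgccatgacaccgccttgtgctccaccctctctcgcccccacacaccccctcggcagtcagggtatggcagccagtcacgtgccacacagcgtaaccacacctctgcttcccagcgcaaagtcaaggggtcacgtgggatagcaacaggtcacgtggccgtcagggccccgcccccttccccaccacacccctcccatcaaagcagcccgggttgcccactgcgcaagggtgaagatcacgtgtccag

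The S phase list opens with the cyclins and E2F factors of the G1/S transition. All 6 were highest in WT 1 or WT 3, and 4 of the 6 were lowest in WT 4. Ccne1, for cyclin E1, was at 1630.3, 1145, 1744 and 1044 normalized counts in WT 1 to 4 and 1287, 1131, 1178 and 1094 in K187R 1 to 4. The other 6 samples were below WT 1 and WT 3 and lay between 1044 and 1287 (log2 fold change of -0.21 with a standard error of 0.166, limma adjusted p = 0.921, exact permutation p = 0.371). E2f1, for the E2F factor that activates replication genes, was at 967, 768, 1165 and 877 normalized counts in WT 1 to 4 and 729.8, 807, 989 and 787 in K187R 1 to 4. WT 3 was the highest and K187R 1 the lowest, and WT 4 was not low for this gene (log2 fold change of -0.18 with a standard error of 0.146, limma adjusted p = 0.921, exact permutation p = 0.314).

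The other G1/S genes were Ccne2, for cyclin E2, E2f2, for another activating E2F, E2f8, for an atypical E2F that represses, and Cdc25a, for the phosphatase that activates Cdk2. Ccne2 had the widest range of the S phase genes, 3.19-fold, from 758 normalized counts in WT 4 to 2417 in WT 1. E2f8 ranged 2.17-fold, E2f2 1.5-fold and Cdc25a 1.35-fold. Their log2 fold changes were -0.32 for Ccne2, -0.20 for E2f8, 0.01 for E2f2 and -0.01 for Cdc25a.

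Licensing genes encode the factors that load the MCM2-7 helicase on origins and the subunits of the helicase itself. All 10 were highest in WT 1 or WT 3, and 8 were lowest in WT 4. Mcm6 had the most transcript per length of all 58 genes, 6349 normalized counts per kilobase of exon, and one of the narrowest ranges, 1.23-fold. Per sample it lay between 27499 and 33859.5 normalized counts, and K187R 4 was not low for it at 29775. Mcm5 ranged 1.79-fold, and the log2 fold changes were -0.09 for Mcm6 and -0.13 for Mcm5. The promoter windows of these helicase genes are shown, with motifs in capitals, because they held E2F motifs, Mcm6 with 3 and Mcm5 with 2. Some of them overlap on opposite strands, as in the longest capital runs. The separate run TTTGGCGC in the Mcm6 window is also an E2F motif, and the runs CCAAT and ATTGG are CCAAT boxes on either strand. The windows are chr1:128359706-128359955 on the minus strand and chr8:75109259-75109508 on the plus strand of GRCm38.p6.
Mcm6: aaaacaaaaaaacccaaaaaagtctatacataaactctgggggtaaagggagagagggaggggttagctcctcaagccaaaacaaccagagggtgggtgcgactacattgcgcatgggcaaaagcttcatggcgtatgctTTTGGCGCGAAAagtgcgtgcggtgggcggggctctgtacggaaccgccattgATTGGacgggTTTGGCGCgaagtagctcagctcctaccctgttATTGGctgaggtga
Mcm5: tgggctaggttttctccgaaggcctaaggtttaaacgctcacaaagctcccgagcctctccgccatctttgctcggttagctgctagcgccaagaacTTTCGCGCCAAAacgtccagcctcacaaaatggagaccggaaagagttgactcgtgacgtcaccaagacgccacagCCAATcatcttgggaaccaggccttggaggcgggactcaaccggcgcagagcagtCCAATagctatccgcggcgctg

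The 22 windows of S phase genes belonged to 19 genes, as some genes had more than 1 window and others none. Of these windows, 6 held an E2F motif (27.27%), those of Mcm5, Mcm6, Mcm7, Cdc6, Cdc25a and Uhrf1. A CCAAT box was in 16 of the 22 (72.73%), windows of 13 genes, and a CHR motif in 4 (18.18%). The genes with an E2F motif included narrow ranges (Mcm6, 1.23-fold) and wide ones (Cdc6, 2.23-fold).

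Mcm2, for a subunit of the helicase, was at 8734, 6722, 9587 and 6320.2 normalized counts in WT 1 to 4 and 7844, 7427, 8523 and 6739 in K187R 1 to 4. Highest were WT 1 and WT 3, yet the K187R samples lay inside the WT range (log2 fold change of -0.02 with a standard error of 0.14, limma adjusted p = 0.987, exact permutation p = 0.886). Mcm7, for another subunit, was at 9744, 7762, 10253 and 7193 normalized counts in WT 1 to 4 and 7920.1, 7964, 8456 and 7266 in K187R 1 to 4. Again WT 1 and WT 3 were above the rest, and WT 4 and K187R 4 were the lowest of their groups (log2 fold change of -0.13 with a standard error of 0.118, limma adjusted p = 0.922, exact permutation p = 0.4). Gins2, for a component of the GINS complex that activates the helicase, was at 827, 653, 903 and 566 normalized counts in WT 1 to 4 and 635, 616, 698 and 586 in K187R 1 to 4. Both WT 1 and WT 3 were above the other 6 samples, which lay between 566 and 698 (log2 fold change of -0.20 with a standard error of 0.153, limma adjusted p = 0.921, exact permutation p = 0.314).

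Among the remaining licensing genes, Cdc6 and Cdt1 encode the loading factors, Mcm3 and Mcm4 encode helicase subunits, and Mcm10 encodes a factor of helicase activation. Mcm10 and Cdc6 had the widest ranges of the list, 2.28-fold and 2.23-fold, and both were lowest in WT 4. Cdt1, whose protein is destroyed outside G1, ranged only 1.43-fold. WT 4, at 2285 normalized counts, was not low for it, while K187R 4, at 1971, was its lowest sample. Mcm4 ranged 1.71-fold and Mcm3 1.72-fold. The log2 fold changes of these 5 genes ran from -0.14 for Cdc6 to 0.02 for Mcm3.

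Genes of the replication fork and of nucleotide supply had the largest median range of the S phase lists. All 6 were highest in WT 1 or WT 3, both samples numbered 4 were the lowest of their groups for all 6, and that range was 1.99-fold. Pcna (ENSMUSG00000027342, chr2:132249162-132253314, minus strand), for the sliding clamp, was at 16430.0, 13269, 15699.7 and 9665 normalized counts in WT 1 to 4 and 12586, 12212, 11626 and 10875 in K187R 1 to 4. WT 4 and K187R 4 were the lowest samples and the K187R range lay inside that of WT (log2 fold change of -0.19 with a standard error of 0.153, limma adjusted p = 0.921, exact permutation p = 0.314). Tyms, for thymidylate synthase, which makes the thymidine nucleotide, was at 2361, 1785, 2522 and 1261 normalized counts in WT 1 to 4 and 1569, 1785, 1763 and 1413 in K187R 1 to 4. It was highest in WT 3 and lowest in WT 4, the ends of a 2.0-fold range, and K187R lay between (log2 fold change of -0.24 with a standard error of 0.203, limma adjusted p = 0.921, exact permutation p = 0.314).

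Rrm1 and Rrm2, for the subunits of ribonucleotide reductase, differed in amplitude: the S phase-restricted subunit Rrm2 ranged 2.51-fold, from 3219 to 8067 normalized counts, and the more stable Rrm1 ranged 1.97-fold. Tk1, for thymidine kinase, ranged 1.91-fold. Uhrf1, for the factor that carries DNA methylation through replication, ranged 2.15-fold. Log2 fold changes were -0.13 for Rrm1, -0.19 for Rrm2, -0.15 for Tk1 and -0.09 for Uhrf1.

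The mitotic genes had wider ranges over the samples than the S phase genes. Both samples numbered 4 were the lowest of their own group for 26 of the 27 mitotic genes and for 18 of the 22 S phase genes, compared with 15.1% of all genes tested. WT 1 and WT 3 were both above every K187R sample for the same number of mitotic genes, 26 of 27, compared with 15.9% of all genes tested. Pttg1 was the exception on both counts.

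Entry into mitosis is driven by cyclins A and B with Cdk1, by the phosphatase Cdc25c, by the Polo and Aurora kinases, and by the transcription factor FoxM1. Ccnb1, for cyclin B1, was at 2779, 2145, 2564 and 1157 normalized counts in WT 1 to 4 and 1954, 2033, 1828 and 1318 in K187R 1 to 4. The highest samples were WT 1 and WT 3 and the lowest WT 4 and K187R 4, with K187R inside the WT range (log2 fold change of -0.22 with a standard error of 0.262, limma adjusted p = 0.927, exact permutation p = 0.514). Ccnb2, for cyclin B2, was at 2133, 1543, 2256 and 1079 normalized counts in WT 1 to 4 and 1441, 1381, 1399 and 1255 in K187R 1 to 4. K187R 1, 2 and 3 stood between 1381 and 1441, below the 3 higher WT samples and above WT 4 (log2 fold change of -0.30 with a standard error of 0.209, limma adjusted p = 0.921, exact permutation p = 0.314). Cdk1 (ENSMUSG00000019942, chr10:69335146-69352938, minus strand), for the mitotic kinase, was at 2540.5, 1893, 2612 and 1194 normalized counts in WT 1 to 4 and 1752, 1800.5, 1824 and 1263 in K187R 1 to 4. K187R 4 stood apart from the other K187R samples, which lay between 1752 and 1824 (log2 fold change of -0.26 with a standard error of 0.241, limma adjusted p = 0.922, exact permutation p = 0.486). Foxm1 was at 3024, 2172, 3427 and 1807 normalized counts in WT 1 to 4 and 2024, 2251, 2519.6 and 1572 in K187R 1 to 4. K187R 4 was its lowest sample, just under WT 4, and WT 3 its highest (log2 fold change of -0.29 with a standard error of 0.214, limma adjusted p = 0.921, exact permutation p = 0.314).

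Promoter windows of Cdk1, Ccnb2 and Top2a are shown because they held both CHR motifs and CCAAT boxes. The DREAM complex and the factor NF-Y bind such elements in known mitotic promoters, and whether these copies are bound was not tested. In the Ccnb2 window the only CHR motif lay 167 bases before the start, upstream of the CCAAT boxes at 87, 54 and 21. Capitals mark the motifs on either strand. The window of Cdk1 also held 1 E2F motif, TTTCGCGC, and those of Ccnb2 and Top2a held none. They are chr10:69352913-69353162, chr9:70421555-70421804 and chr11:99024190-99024439 of GRCm38.p6, all on the minus strand.
Cdk1: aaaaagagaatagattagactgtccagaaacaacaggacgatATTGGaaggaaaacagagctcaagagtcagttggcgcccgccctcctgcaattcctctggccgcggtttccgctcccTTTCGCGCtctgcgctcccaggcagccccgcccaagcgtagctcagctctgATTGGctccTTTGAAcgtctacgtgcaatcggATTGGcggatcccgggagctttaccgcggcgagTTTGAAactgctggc
Ccnb2: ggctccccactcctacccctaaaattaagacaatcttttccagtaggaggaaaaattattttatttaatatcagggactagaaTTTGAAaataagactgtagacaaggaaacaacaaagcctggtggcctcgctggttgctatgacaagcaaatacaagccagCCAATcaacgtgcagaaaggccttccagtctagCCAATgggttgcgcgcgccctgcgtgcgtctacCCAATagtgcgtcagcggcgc
Top2a: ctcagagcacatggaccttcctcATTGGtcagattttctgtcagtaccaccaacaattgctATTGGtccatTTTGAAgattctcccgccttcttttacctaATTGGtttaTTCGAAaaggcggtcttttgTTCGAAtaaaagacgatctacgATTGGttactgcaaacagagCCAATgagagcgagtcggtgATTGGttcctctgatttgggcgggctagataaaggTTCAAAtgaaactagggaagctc

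A CHR motif together with a CCAAT box was in 8 of the 21 windows of mitotic genes (38.1%), in 4 of 22 windows of S phase genes (18.18%) and in 6.021% of all windows. These 8 genes were Bub1b, Ube2c, Cdc20, Mki67, Ccnb2, Cdk1, Top2a and Kif11. At least 2 CCAAT boxes were in 61.9% of the mitotic windows, 40.91% of the S phase windows and 10.09% of all windows. Windows of 11 members were not matched: Ccnd1, Ccnd2, Ccne2, Mcm4, Gins2, Ccna2, Cdc25c, Foxm1, Aurkb, Kif20a and Tpx2.

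The other entry genes were Ccna2, for cyclin A2, Cdc25c, Plk1, for Polo-like kinase 1, and Aurka and Aurkb, for the Aurora kinases A and B. Ccna2 ranged 2.49-fold, the widest of the entry list, from 3029 normalized counts in WT 4 to 7531 in WT 1. Aurka, Aurkb and Cdc25c each ranged 2.16-fold to 2.17-fold and Plk1 2.04-fold. Aurkb and Foxm1 were the entry genes whose lowest sample was K187R 4 instead of WT 4. Cdc25c had the lowest level of the 58 genes, 58.5 normalized counts per kilobase of exon. Log2 fold changes ran from -0.31 for Aurkb to -0.12 for Plk1.

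Spindle, kinetochore and mitotic chromosome genes had the largest median range of the 8 role lists, 2.48-fold. Mki67 (ENSMUSG00000031004, chr7:135689784-135716361, minus strand), for the proliferation marker Ki-67 that coats mitotic chromosomes, was at 27755, 17412, 26709.9 and 12057 normalized counts in WT 1 to 4 and 19420.2, 18810.5, 16903 and 11871 in K187R 1 to 4. Of these samples, WT 1 and WT 3 were about equal and far above the rest, and WT 4 and K187R 4 were about equal and far below (log2 fold change of -0.27 with a standard error of 0.267, limma adjusted p = 0.923, exact permutation p = 0.457). Top2a (ENSMUSG00000020914, chr11:98992943-99024189, minus strand), for the topoisomerase that untangles sister DNA, was at 43510.2, 26898, 40078 and 15034 normalized counts in WT 1 to 4 and 27829.5, 26754, 23684 and 15762 in K187R 1 to 4. Its range of 2.89-fold was among the widest of the mitotic genes, and K187R lay inside the WT range (log2 fold change of -0.34 with a standard error of 0.322, limma adjusted p = 0.923, exact permutation p = 0.514). Birc5, for survivin, a subunit of the chromosomal passenger complex, was at 2612, 1899.7, 2710.5 and 1445 normalized counts in WT 1 to 4 and 1697, 1745, 1863 and 1357 in K187R 1 to 4. WT 1 and WT 3 were highest and K187R 4 lowest (log2 fold change of -0.34 with a standard error of 0.198, limma adjusted p = 0.921, exact permutation p = 0.2).

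Cenpa (ENSMUSG00000029177, chr5:30666777-30674830, plus strand), for the histone variant that marks centromeres, was at 3818, 3293, 4007 and 3195 normalized counts in WT 1 to 4 and 2711, 3097, 3389.7 and 2570.3 in K187R 1 to 4. It was the member with the smallest p-value: 3 of the 4 K187R samples were below every WT sample, and K187R 3 overlapped WT (log2 fold change of -0.28 with a standard error of 0.112, limma adjusted p = 0.921, exact permutation p = 0.0857). The unadjusted limma p-value was 0.0309. For Cenpa, WT 4 was close to WT 2, and the whole range was 1.56-fold, the narrowest of the spindle list. Within the 3 sets of samples, the K187R minus WT differences were -0.53, -0.02 and -0.31 on the log2 scale.

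The 11 remaining spindle genes repeated the main pattern. They were the checkpoint kinases Bub1, Bub1b and Ttk, the kinetochore genes Cenpe and Cenpf, the motors Kif11, Kif20a and Kif23, and the spindle factors Tpx2, Nusap1 and Hmmr. All 11 were highest in WT 1 or WT 3 and lowest in WT 4. Their ranges ran from 2.04-fold for Bub1b to 2.89-fold for Hmmr. Cenpf was also high in K187R 1, at 3499 normalized counts against 2007 to 2769 in the other K187R samples. All 11 log2 fold changes were below 0, from -0.32 for Kif11 to -0.19 for Kif20a.

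Mitotic exit was represented by Cdc20 and Ube2c, the activator and the ubiquitin-conjugating enzyme of the anaphase-promoting complex, and by Pttg1, for securin, one of its substrates. Cdc20 was at 2194, 1631, 2420.4 and 1339 normalized counts in WT 1 to 4 and 1840.2, 1655, 1932 and 1446 in K187R 1 to 4. WT 3 was highest and WT 4 lowest, and the K187R samples lay inside the WT range (log2 fold change of -0.11 with a standard error of 0.184, limma adjusted p = 0.945, exact permutation p = 0.6). Pttg1 was at 882, 1032, 929 and 816 normalized counts in WT 1 to 4 and 846, 982, 1085 and 935 in K187R 1 to 4. It was highest in K187R 3 and WT 2, and neither WT 1 nor WT 3 was high (log2 fold change of 0.07 with a standard error of 0.11, limma adjusted p = 0.937, exact permutation p = 0.486). Ube2c ranged 2.15-fold with a log2 fold change of -0.13, and 22.8% of its exonic bases overlap a gene on the opposite strand.

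The 3 inhibitors of cyclin-dependent kinases did not run opposite to the cyclins and kinases across the samples. Cdkn1a, for p21, a target of p53, was at 8404, 6553, 9449.9 and 7071 normalized counts in WT 1 to 4 and 7512, 6007, 7163 and 7384 in K187R 1 to 4. WT 3 and WT 1 were its highest samples and K187R 2 its lowest (log2 fold change of -0.16 with a standard error of 0.124, limma adjusted p = 0.921, exact permutation p = 0.343), and 7.68% of its exonic bases overlap a gene on the opposite strand. Cdkn1b, for p27, which holds resting T cells in G1, was at 22283, 25806, 16788 and 16708 normalized counts in WT 1 to 4 and 18493, 22717, 17200.2 and 16961 in K187R 1 to 4. WT 2 and K187R 2 were among its 3 highest samples with WT 1, and the samples numbered 4 were not high (log2 fold change of -0.10 with a standard error of 0.156, limma adjusted p = 0.941, exact permutation p = 0.714). Cdkn2c, for p18, an inhibitor of Cdk4 and Cdk6, was at 1434, 1232, 1449 and 878 normalized counts in WT 1 to 4 and 1122, 1236, 1276 and 901 in K187R 1 to 4. It had the same highest samples, WT 3 and WT 1, and the same lowest samples, WT 4 and K187R 4, as most S phase genes (log2 fold change of -0.12 with a standard error of 0.176, limma adjusted p = 0.935, exact permutation p = 0.571).

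Between the groups, no gene of the 58 differed beyond the spread of the samples. The number with an adjusted p-value under 0.05 in limma was 0 of 58, as it was 0 of the 16982 genes tested (0%), and the smallest adjusted p-value among the 58 was 0.921. At an unadjusted p-value under 0.05 there was 1 member, Cenpa, lower in K187R, where 4.39% of all genes tested were below it, 1.64% with K187R lower and 2.75% with K187R higher. edgeR called 0 members and 0 of all genes tested. DESeq2 called 0 members, with a smallest adjusted p-value of 0.695 for Cenpa, and 0.183% of all genes tested. Groups that did not overlap occurred for 0 members, against 0.989% of all genes tested with K187R lower and 1.47% with K187R higher.

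The log2 fold change was below 0 for 52 of the 58 genes, where 51.6% of all genes tested were below 0. The 6 above 0, against 48.4% of all genes tested, were Ccnd1, Ccnd3, Cdk6, E2f2, Mcm3 and Pttg1, of which Ccnd3 and Cdk6 turned below 0 with median centring, while Mcm2 turned above 0 with quantile normalization. The median was -0.13 over the S phase genes (20 of 22 below 0), -0.26 over the mitotic genes (26 of 27), 0.01 over the G1 genes (3 of 6) and -0.12 over the inhibitors (3 of 3), with -0.01 over all genes tested. Because these genes share one pattern over the samples, their signs are not independent observations. The medians depended on single samples: without WT 1 the mitotic median was -0.08 and the S phase median -0.04, without WT 3 they were -0.11 and -0.02, and without K187R 4 -0.11 and -0.04. Without WT 4 they were -0.50 and -0.30, and 30 members then had an unadjusted p-value under 0.05, as did 12.8% of all genes tested in the same fit, still with 0 members past the adjusted threshold.

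**Figure D4:**
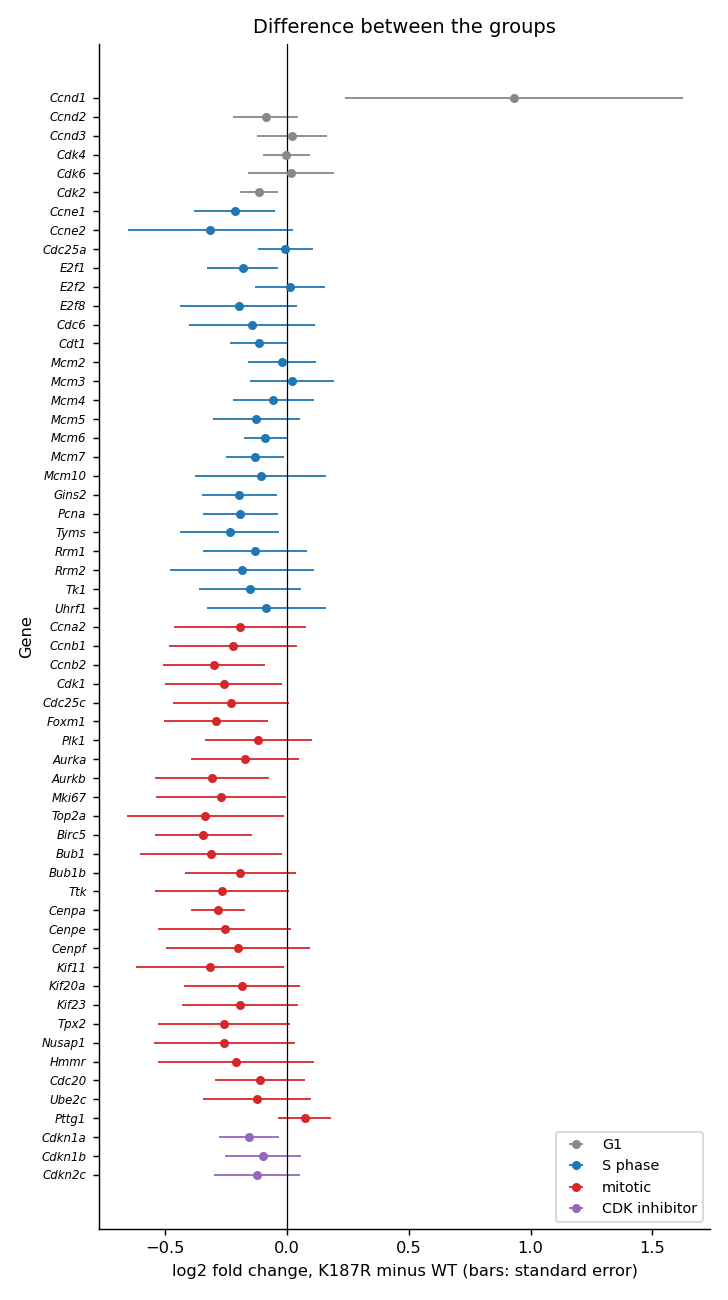
Log2 fold change of K187R relative to WT (x axis) with its standard error for the 58 genes (y axis, by role, coloured by phase). Most points lie below 0, many within 1 standard error of it, and Ccnd1, at 0.93, has the widest error.

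Within the sets of samples the direction was not shared. Each set had 1 sample in WT, in K187R or in both, so the counts over genes describe single samples and not replicates. In the first set, K187R 1 was below the mean of WT 1 and WT 3 for 22 of 22 S phase genes and 27 of 27 mitotic genes, with medians of -0.38 and -0.55. In the second set, the mean of K187R 2 and K187R 3 was below WT 2 for 4 of 22 and 14 of 27, with medians of 0.13 and -0.00. In the third set, K187R 4 was below WT 4 for 3 of 22 and 5 of 27, with medians of 0.13 in both lists. Over all 16982 genes tested these differences were below 0 for 8674, 8257 and 7862 genes, with medians of -0.006, 0.009 and 0.018. For Top2a these differences were -0.59, -0.10 and 0.07, for Pcna -0.35, -0.16 and 0.17, and for Mcm2 -0.22, 0.24 and 0.09. With the set as a term in the fit, the medians were -0.08 for S phase and -0.17 for mitosis, and 0 members passed the adjusted threshold.

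The WT samples also spread more widely than the K187R samples. The standard deviation of the log2 values was larger in WT for 54 of the 58 genes, including 22 of 22 S phase genes and 25 of 27 mitotic genes, and for 63.1% of all genes tested. Its median over the mitotic genes was 0.52 in WT and 0.26 in K187R, over the S phase genes 0.36 and 0.17, and over all genes tested 0.23 and 0.19. For 44 of the 58 genes the whole K187R range lay inside the WT range, which was so for 29.5% of all genes tested. This difference in spread was not tested.

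The samples numbered 4 were low in both groups, and more so in WT. WT 4 had a median of 0.531 times the other WT samples over the mitotic genes and 0.645 times over the S phase genes. K187R 4 had 0.708 and 0.824 times the other K187R samples. The spindle list was lowest of the roles in WT 4, at 0.474 times, and at 0.702 times in K187R 4. Without both samples numbered 4, the median log2 fold change was -0.20 for the S phase genes and -0.36 for the mitotic genes, 18 members had an unadjusted p-value under 0.05, as did 11.5% of all genes tested in the same fit, and 0 passed the adjusted threshold.

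Markers of other cell types also differed among the samples. The summed level of 8 markers of monocytes, macrophages and dendritic cells (Lyz2, Cd68, Csf1r, Itgam, Adgre1, Cd14, Itgax and Fcgr1) was 21520.4, 51221, 21909 and 62572 normalized counts in WT 1 to 4 and 36409, 45496, 49473 and 65751 in K187R 1 to 4. The sum was lowest in WT 1 and WT 3 and highest in WT 4 and K187R 4, and Lyz2, for lysozyme, made up most of it, between 17025 and 57778. The single markers did not all share that order: 6 of the 8 were lowest in WT 1 and WT 3, all but Cd68 and Cd14, and 4 of the 8 were highest in WT 4 and K187R 4, namely Lyz2, Cd68, Itgam and Fcgr1. Csf1r, for the receptor of the macrophage growth factor CSF-1, was at 2598 and 2423 normalized counts in WT 4 and K187R 4, below the 4220 to 5074 of WT 2, K187R 2 and K187R 3. Cd14 was at 448 and 407 in WT 4 and K187R 4, below both WT 1 (558) and WT 3 (676). All 8 were above the floor of 3 reads. The 6 granulocyte and mast cell markers summed to between 3450 and 48022 in WT and between 10521 and 34982 in K187R, highest in WT 2. Both CD8+ T cell markers together were highest in WT 4 and K187R 4, at 1025 and 1141, and between 387 and 556 elsewhere. The 6 B cell markers were lowest in the same samples, at 388 and 457, and between 1189 and 1861 elsewhere. Markers of NK cells summed to at most 435 (3 of 4 listed) and of erythroid cells to at most 96.9 (5 of 6 listed, with Hba-a1 and Hbb-bs at 0 in some samples). The part of these cells in the result was not tested.

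**Figure D5:**
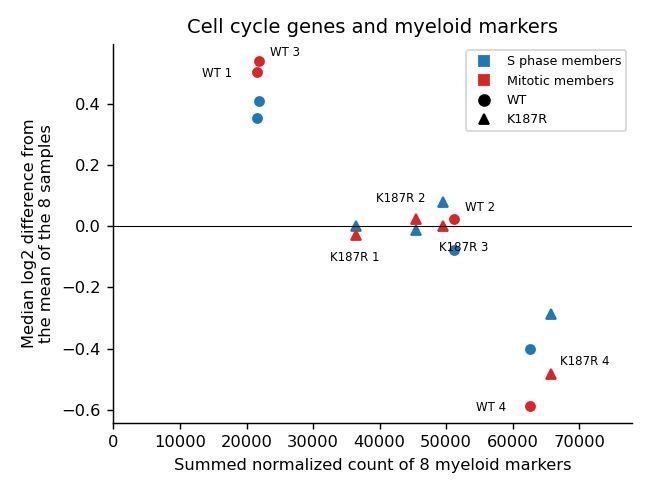
Median difference of the S phase and mitotic genes from their own means (y axis, log2) against the summed normalized count of 8 markers of monocytes, macrophages and dendritic cells (x axis) in the 8 samples; circles are WT and triangles K187R. WT 1 and WT 3 lie at the upper left and WT 4 and K187R 4 at the lower right.

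A further 171 cell cycle genes were above the same minimum. For 54 other replication genes the median log2 fold change was -0.17, for 82 other mitotic genes -0.24, and for 35 other E2F, pocket protein and checkpoint genes -0.07. None passed the adjusted threshold in limma or edgeR, where 0 of all genes tested did, or in DESeq2, where 0.183% did. An unadjusted limma p-value under 0.05 was found for 4 of the 171, all with K187R lower. Of all genes tested, 4.39% had one, 1.64% with K187R lower. The highest sample was WT 1 or WT 3 for 51 of 54, 75 of 82 and 22 of 35 of them, and for 28.9% of all genes tested. Both samples numbered 4 were the lowest of their groups for 38, 68 and 14, and for 15.1% of all genes tested.

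By p-value, the leading genes of these lists with K187R lower were Gadd45a, Cenpl and Dbf4. Gadd45a, a growth arrest gene induced by DNA damage, was at 1121, 1033, 1046 and 1032 normalized counts in WT 1 to 4 and 836, 807, 678 and 926 in K187R 1 to 4. All 4 K187R samples were below all 4 WT samples, which 0.989% of all genes tested shared (log2 fold change of -0.39 with a standard error of 0.107, limma adjusted p = 0.921, exact permutation p = 0.0286), and the exact p-value is the smallest that 4 against 4 samples allow. Its adjusted p-value was 0.181 in DESeq2. Gadd45a did not share the sample pattern of the members, and its 4 WT samples lay between 1032 and 1121 normalized counts. Cenpl, for a kinetochore protein, had a log2 fold change of -0.36 with a standard error of 0.136 (limma adjusted p = 0.921, exact permutation p = 0.0857). Dbf4, for the activator of the replication kinase Cdc7, had a log2 fold change of -0.30 with a standard error of 0.134 (limma adjusted p = 0.921, exact permutation p = 0.0857). With K187R higher, they were Btg1, an antiproliferative gene, with a log2 fold change of 0.11 with a standard error of 0.0728 (limma adjusted p = 0.921, exact permutation p = 0.114), Timeless, for a protein that travels with the fork, with a log2 fold change of 0.15 with a standard error of 0.107 (limma adjusted p = 0.921, exact permutation p = 0.229), and Cdkn2b, for the inhibitor p15, with a log2 fold change of 0.73 with a standard error of 0.532 (limma adjusted p = 0.921, exact permutation p = 0.286).

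The strand setting of the counting is not given in the sources used here, so reads of a gene and of one that overlaps it on the opposite strand cannot be told apart. In 9 of the 58 genes at least 10% of the exonic bases overlap a gene on the opposite strand: 67.3% in Gins2, 29.3% in Kif20a, 23.4% in Ccnd1, 22.8% in Ube2c, 19.7% in Cdk4, 17.4% in Ccne2, 12.7% in Cdc25c, 12.5% in Ccna2 and 11.2% in E2f8. In Gadd45a the share was 19.1%. How reads shared with copies of a gene were counted is likewise not given. Listed genes named as pseudogenes of members had far lower counts than the members. The highest were Pcna-ps2, at a mean of 100.2 normalized counts against 12795 for Pcna, and Ccnb1-ps, at 44.8 against 1972 for Ccnb1.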

How the data were processed

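RNA seq was analysed in 4 samples of ROR-γt-/- Th17 cells with WT-ROR-γt and 4 with K187R-ROR-γt. The authors trimmed reads with Cutadapt, aligned them to GRCm38 with HiSat2, counted them on GENCODE M15 genes with featureCounts and ran DESeq2. The strand setting of the counting is not given in the sources used here, and the labels and the methods name different library kits. In the deposited table each gene has a signal, its reads after division by a sample's size factor. These values gave back whole reads for 100% of values (tolerance 0.001 of a read). 0 columns were left unused.

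Since the authors deposited normalized values in place of raw counts, limma was fitted to log2(normalized count + 1) with an intensity trend for the 16982 genes averaging 10 or more, with Benjamini-Hochberg adjustment with a threshold of 0.05. A fold change on this scale understates that of low genes. edgeR and DESeq2 were run on recovered reads. For named members an exact two-sided permutation test was added (70 regroupings of the 8 samples, smallest p 0.0286). The methods were tested on simulated data. Reads per sample were 52456804 to 74676721, and the floor of 3 reads, 2.54 to 3.56 normalized counts, covers counting error only.

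The members, gene lists, tests and alternatives were chosen with earlier results of these data known. Values in every sample are given for 15 preselected members, for the 2 members with the smallest limma p in each role, and for members whose groups do not overlap; of the other cell cycle lists, the 3 genes with the smallest p in each direction are named. Genes singled out beside these were chosen after their values were seen. Sample sets came from clustering without cell cycle genes, cut at a chosen number of 3 sets. Samples of the same number were not treated as pairs: their deviations from the group means correlated at 0.59, 0.66, -0.10 and 0.63 for numbers 1 to 4, and nothing states a shared source. The 23 alternatives covered pseudocount, filter, scaling, trend, weights, block, sets, left-out samples and the other tools. Gene positions and exon lengths are from GENCODE M21 (22784 of 22829 identifiers matched), promoters from RefSeq. Python 3.11.15, limma 3.58.1 under R 4.3.3, DESeq2 1.42.0 and edgeR 4.0.16 were used. Some results are not reported here.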

Additional observations from a re-analysis of the deposited data

Results flagged for a closer look

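In 8 cases the highest or lowest sample of a group of 4 stood far from the other 3, by a gap that made up most of the group's whole range. Over the 122 groups examined chance alone gives about 6.1 such cases, about 1 in 20. The groups are not independent, because the genes share a sample pattern and the list medians come from the same genes. The count of cases therefore cannot show whether chance was exceeded. All 8 were in K187R. In 6 of them K187R 4 was the low sample: Mcm4 at 9914 normalized counts (others 12430 to 12918), Rrm1 at 7822 (10716 to 11131), Rrm2 at 3547 (5926 to 6160), Cdk1 at 1263 (1752 to 1824), Ttk at 478 (651 to 666), and the median log2 difference of the mitotic genes from their means at -0.48 (-0.03 to 0.02). Ccnd2 was high in K187R 1, at 52345 normalized counts (44397 to 45415), and Cdk4 was low in K187R 2, at 8192 (8983 to 9049).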

How the results depend on the processing

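The count of members past the adjusted threshold, and that of the 171 further cell cycle genes, was 0 under all 23 alternatives, and the smallest adjusted p-value of a named member was 0.209 (limma, Ccnb2 with sample weights). Over all genes tested the count was 0 with limma and became 31 with DESeq2 (17 higher, 14 lower), 3 with sample weights, 1 with the sample set as a term and 4 without both samples numbered 4; leaving out single samples gave 0 to 4, with 4 without WT 4. The cause was not tested. With the replicate number as a block it was 0, with 5 members and 2046 of all 16982 genes at an unadjusted p-value under 0.05, and the block changed no call; the medians were -0.13 for S phase, -0.26 for mitotic and 0.01 for G1 genes, as without it. Unadjusted p-values under 0.05 were counted for 25 members with sample weights (18.7% of all genes in that fit) and 18 without both samples numbered 4 (11.5%). Leaving out single samples put the S phase median between -0.30 and -0.02, the mitotic median between -0.50 and -0.08 and the G1 median between -0.07 and 0.06. Small fold changes turned in sign: Ccnd3 to -0.0022 and Cdk6 to -0.0046 with median centring, Cdk6 to -0.099 with sample weights and -0.040 without both samples numbered 4, and Mcm2 to 0.0020 with quantile normalization and 0.033 with the set. Leaving out single samples gave -0.058 to 0.131 for Ccnd3, -0.148 to 0.125 for Cdk6, -0.118 to 0.082 for Mcm2, -0.192 to 0.023 for Cdkn1b and -0.266 to 0.019 for Cdc20. Of the other values for named genes, 558 kept their direction and side of the threshold. Every member had at least 116 reads in every sample, so counting error is small for these genes beside the spread between samples.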
